A study of Mus musculus with 71 samples.

Results

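Ileal γδ intraepithelial lymphocytes (γδ IELs) of Btnl2-KO mice were compared with those of wild-type (WT) mice by bulk RNA sequencing. Of the 71 samples of the series, 7 were chosen by titles that name ileal intraepithelial lymphocytes and the genotype, and they comprised 3 Btnl2-KO and 4 WT libraries. The mice were C57BL/6 and 10 weeks old by their labels (the study's text gives an age a week older), and Btnl2-KO and WT mice were female littermates housed together. The KO allele carries a LacZ cassette in frame with the start codon of Btnl2, followed by a selection cassette, and is described by the study as a null allele. For each library the cells of a pair of mice were pooled and sorted as CD45+, TCRβ-negative, and TCRγδ+ cells, and no library came from a single animal. The duodenal (3 Btnl2-KO, 4 WT) and jejunal (4 Btnl2-KO, 4 WT) γδ IEL libraries, 8 WT libraries of intestinal epithelial cells (IECs), and 1 ileal single-cell library per genotype were used for comparison. By label, the other γδ IEL libraries came from mice of 10 weeks and the IEC libraries from mice of 7 weeks. The single-cell libraries came from mice of 8 to 10 weeks. The replicates of a genotype were numbered in the order of the records, and the numbers do not pair libraries.

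γδ IELs are T cells that live between the epithelial cells of the gut, where they carry the integrin αEβ7, granzymes, and receptors shared with natural killer (NK) cells. Butyrophilin-like proteins are made by epithelial cells and are known to shape the intestinal γδ T cell compartment, Btnl1 and Btnl6 being known for their action on the Vγ7+ cells of mice. IELs depend on IL-15, which signals through the IL-2 receptor β chain, the common γ chain, JAK3, and STAT5. α-defensins and lysozyme are products of Paneth cells, and mucins of goblet cells, so that such transcripts in a lymphocyte sort may come from epithelial cells or their RNA. In bulk libraries, fewer cells of a type and less RNA per cell cannot be told apart.

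Btnl2 (chr17:34354789-34369492, GRCm38.p6), the targeted gene, had 0.119, 0, and 0 CPM (counts relative to the library total, scaled by TMM factors) in the 3 Btnl2-KO libraries. The 4 WT libraries had 2.77, 3.41, 2.37, and 2.85 CPM. The genotypes did not overlap, and no library went against its label for this gene. The 2 counts in Btnl2-KO against 188 in WT libraries give a 71.7-fold higher share in WT, with an exact 95% interval for counting error of 19.6 to 597. Neither Btnl2 nor any other gene passed the test used here, edgeR's quasi-likelihood test at a false discovery rate (FDR) below 0.05 and a fold change above 1.5, and the FDR of Btnl2 was 0.26. A feature listed only by number, ID807225, which was chosen after its values were seen, had 2.13, 0.737, and 2.48 CPM in Btnl2-KO and 0 in every WT library. Against a floor of 3 counts over the WT group it was at least 41.9-fold higher in Btnl2-KO libraries.

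The T cell markers Cd3e, Cd3d, and Cd3g were high in every library. Cd3e, a subunit of the CD3 complex that carries the T cell receptor signal, lay at 1770, 893, and 1504 CPM in Btnl2-KO and at 1500, 805, 887, and 1179 CPM in WT libraries. The macrophage marker Csf1r was at or below 0.298 CPM and Cd4 at or below 3.95 CPM in the 7 libraries. The mast cell list (4 genes tested) had a median log2 fold change of -0.58 (0.36 with the epithelial covariate), and 1 of its genes was higher at an unadjusted p below 0.05. The lists for αβ T, B, myeloid, and stromal cells had 1 to 4 tested genes each. The γδ TCR genes and the constant regions of the αβ TCR were not analysed here. Total counts ranged from 15144045 to 18519614 per library.

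Epithelial transcripts were present in all libraries, at a lower mean level in the Btnl2-KO group. The 12 pan-epithelial genes, among them Epcam and Krt18, summed to 2769, 1017, and 3470 CPM in Btnl2-KO libraries. In WT libraries they summed to 3350, 8591, 7624, and 6440 CPM. One WT library (WT 1) therefore lay below a Btnl2-KO library, and the genotypes overlapped. Medians with the mean pan-epithelial level of each library as a covariate are given for the gene lists described. That level was itself lower on average in Btnl2-KO libraries, so that the covariate shares part of the genotype difference. A fit with the covariate cannot fully separate the genotype from the epithelial level, and fewer genes at a small p can follow from this overlap. WT 1 was also closer to the first Btnl2-KO library (KO 1) than to any WT library, with a Pearson correlation of log2 CPM across genes of 0.987 against 0.956 to 0.966. The second Btnl2-KO library (KO 2) stood apart from all others, at 0.917 to 0.962. Its ribosomal protein genes summed to 69559 CPM, against 17428 to 40570 CPM in the other 6 libraries. Lars2 took 3.69% of the counts of KO 2, against 0.133 to 1.06% in the others, and features listed only by number took 3.47%, against 0.332 to 0.787%. All 7 libraries were kept.

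**Figure D1:**
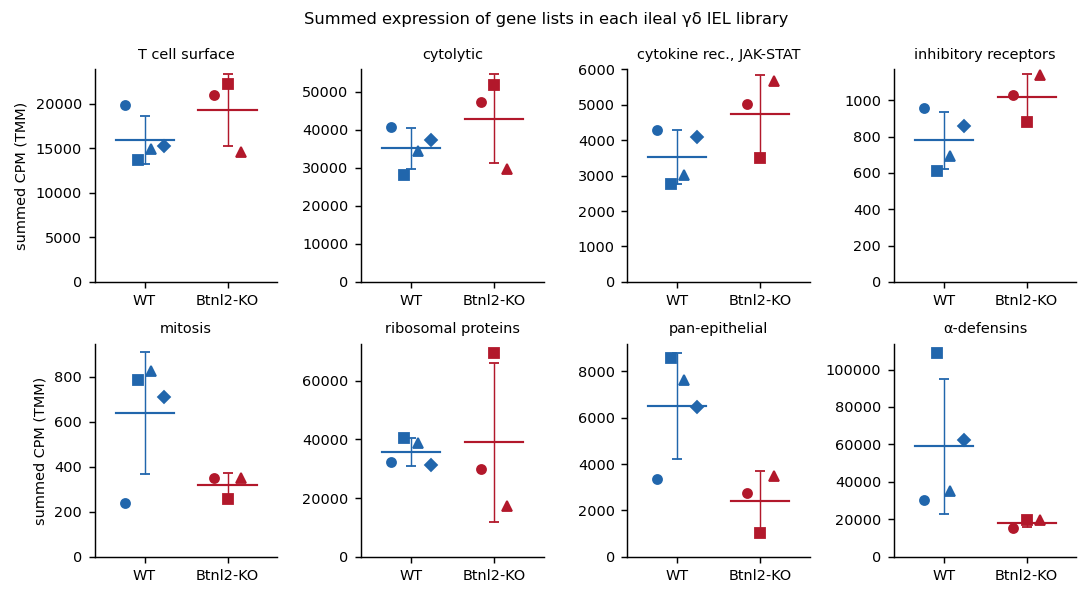
Summed TMM-scaled CPM of 8 gene lists (vertical axes, from 0) in the 4 WT (blue) and 3 Btnl2-KO (red) ileal γδ IEL libraries. Circles, squares, triangles, and the diamond are libraries 1, 2, 3, and 4 of a genotype, long lines are means, and bars are 1 SD. The mitosis list lies between 255 and 350 CPM in Btnl2-KO libraries, WT 1 has 239 CPM, and the other WT libraries lie between 708 and 826 CPM.

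Of 12604 genes tested, 0 were lower (0% called) and 0 higher (0%) in Btnl2-KO libraries by edgeR's quasi-likelihood test, and the lowest FDR was 0.26. At an unadjusted p below 0.05, 797 genes (6.32%) were lower and 311 (2.47%) higher. All Btnl2-KO libraries lay below all WT libraries in 503 genes (3.99%) and above them in 412 genes (3.27%). DESeq2 at the same thresholds called 225 genes (1.75%) lower and 2 genes (0.0156%) higher, the latter being ID807225 and Ptp4a1. limma-voom with sample quality weights called 816 genes (6.47%) lower and 391 (3.1%) higher. These weights ranged from 0.315 for KO 2, 0.381 for KO 3, and 0.465 for WT 1 to 3.36 for WT 3, so that this result rests on fewer libraries in effect. With WT 1 left out edgeR called 60 genes, all lower, and with both KO 2 and WT 1 left out, an alternative chosen after seeing the data, it called 478 lower and 57 higher. Leaving out the libraries that lie farthest from their group lessens the spread by construction, and these counts are given as such.

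Genes were classed without using the ileal γδ IEL libraries, to separate those of lymphocytes from those of epithelium. Their mean CPM was taken in the 8 WT duodenal and jejunal γδ IEL libraries and in the 8 WT IEC libraries, 2 tables normalized separately. The IEC libraries came from the duodenum, jejunum, and ileum. The 2335 tested genes at least 4 times higher in γδ IELs (lymphocyte-enriched) had a median log2 fold change of 0.22, and 1929 of them were higher in Btnl2-KO than in WT libraries. At an unadjusted p below 0.05, 128 of them were higher and 6 lower. The 1263 epithelial-enriched genes had a median of -0.73, with 4 genes higher and 228 lower at that p. The 7279 shared genes had a median of 0.06, with 167 higher and 473 lower, and the median over all tested genes was 0.06. Genes of lymphocytes thus lay on the higher and genes of epithelium on the lower side of the comparison under this scaling.

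The direction of the lymphocyte-enriched class depended on the scaling. Lymphocyte-enriched genes took 42.6, 41.9, and 37.0% of the counts of the Btnl2-KO libraries and 41.2, 29.7, 32.9, and 32.5% of those of the WT libraries. With TMM factors computed from these genes alone, the median over all tested genes moved to -0.16. Then 1175 of the 2335 lymphocyte-enriched genes were higher, with a median of 0.00. At an unadjusted p below 0.05, 9 of them were then higher and 18 lower. Such factors centre the class near 0 by construction, so that its median and its count of higher genes are not a result. With the epithelial covariate the median of the class was -0.04, and 81 of its genes were higher and 52 lower at that p. The genes of the lymphocyte-enriched class that are described next are therefore given with their values relative to that class as well.

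**Figure D2:**
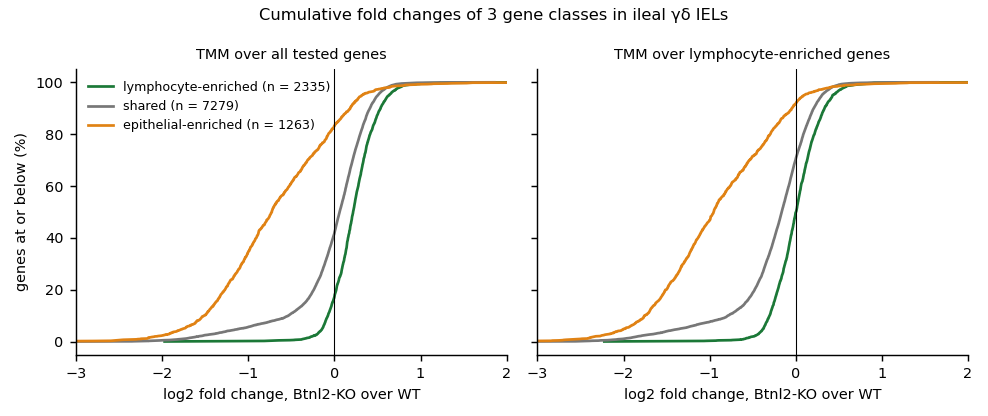
Cumulative share of genes (vertical axis, percent) at or below a log2 fold change, Btnl2-KO over WT (horizontal axis), for 2335 lymphocyte-enriched, 7279 shared, and 1263 epithelial-enriched genes. With TMM factors over all tested genes (left) 1929 lymphocyte-enriched genes lie above 0, and with factors from the lymphocyte-enriched genes alone (right) 1175 do. The latter scaling centres that class near 0 by construction.

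The 10 lymphocyte-enriched genes with the smallest p among those at 10 CPM or more in a group and with no overlap between genotypes were 1.54 to 2.02-fold higher in Btnl2-KO libraries, and their FDRs by edgeR were 0.43 to 0.45. Apbb1 (chr7:105558465-105581924), an adaptor that binds the amyloid precursor protein, had 21.2, 16.7, and 11.6 CPM in Btnl2-KO and 9.34, 7.22, 8.63, and 7.31 CPM in WT libraries. It was the gene with the highest fold change of the 10, with a log2 fold change of 1.02 (SE 0.28, edgeR FDR 0.43, n = 3 and 4). Heyl (chr4:123233556-123249870), a transcriptional repressor of the Hey family that acts downstream of Notch, had 97.1, 82.8, and 145 CPM in Btnl2-KO libraries. In WT libraries it had 76.0, 40.9, 50.4, and 73.1 CPM, so that KO 2 and WT 1 lay close to each other. Its log2 fold change was 0.85 (SE 0.28, edgeR FDR 0.45).

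Slc39a6, a zinc transporter, had 102, 113, and 129 CPM in Btnl2-KO against 86.0, 59.0, 73.0, and 78.9 CPM in WT libraries. Irf2bpl had 113, 96.2, and 157 CPM against 91.0, 73.7, 59.5, and 73.5 CPM, the lowest Btnl2-KO library being just above WT 1. Magee1, a gene of the MAGE family on the X chromosome, had 17.0, 18.4, and 20.6 CPM against 12.5, 9.27, 10.7, and 10.6 CPM. Tmx4, which encodes a thioredoxin-related membrane protein, had 27.8, 51.2, and 38.9 CPM against 25.1, 21.0, 25.8, and 23.6 CPM. The log2 fold changes of these 4 genes were 0.63, 0.71, 0.79, and 0.72. AW011738, Tspyl4, Wdr6, and Plcxd1 were the other genes of this group, at log2 fold changes of 0.73, 0.64, 0.78, and 0.80.

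All 10 stayed above 0 under both corrections, with a median log2 fold change of 0.56 with lymphocyte-based factors and 0.67 with the epithelial covariate. They had been chosen on these same libraries for a small p and no overlap, and lymphocyte-based factors moved the median of their class only from 0.22 to 0.00. Their staying above 0 is therefore no independent check. Under each correction 5 of the 10 were at an unadjusted p below 0.05. DESeq2 called none of the 10, and limma-voom with sample weights called 7. In the duodenum 4 of the 10 were higher in Btnl2-KO libraries (median -0.01), and in the jejunum 4 (median -0.15), with no member at an unadjusted p below 0.05 in either segment. The single cells of the ileum did not show the difference: the summed UMIs of the 10 genes were 396 CPM in the Btnl2-KO and 392 CPM in the WT library, a ratio of 1.01 (0.98 to 1.04), and 4 of the 10 were higher. Apbb1 itself had a ratio of 0.84 (0.69 to 1.02) in the single cells.

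**Figure D3:**
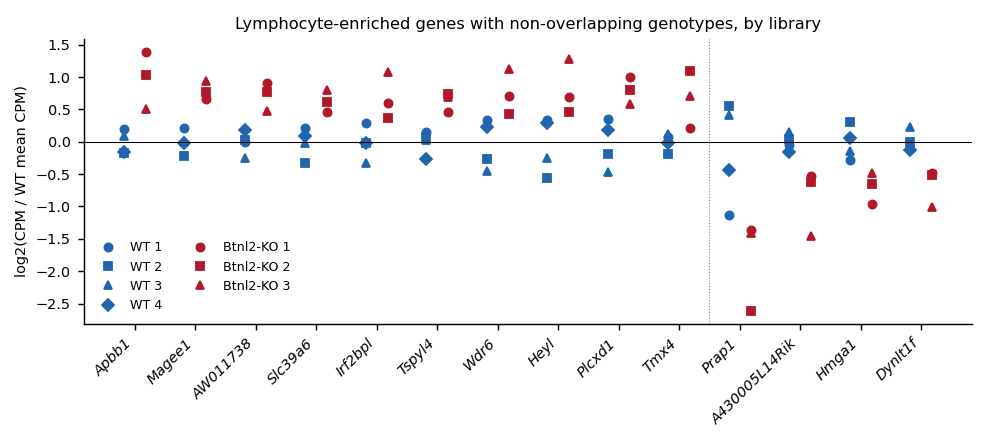
The 10 lymphocyte-enriched genes higher (left of the dotted line) and 4 of the 8 lower (right) in Btnl2-KO libraries, each point a library, as log2 of its CPM over the mean CPM of the 4 WT libraries (vertical axis). Circles, squares, triangles, and diamonds are libraries 1, 2, 3, and 4 of WT (blue) and Btnl2-KO (red); the genes were chosen for having no overlap between genotypes.

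The 5 shared genes chosen by the same rule were 1.62 to 2.02-fold higher. Rnf157, a ubiquitin ligase, had 10.5, 13.6, and 15.7 CPM in Btnl2-KO and 8.19, 5.38, 5.24, and 7.41 CPM in WT libraries (log2 fold change 1.02, SE 0.29, edgeR FDR 0.44). Tnpo2, a nuclear import receptor, had 19.0, 31.4, and 25.1 CPM against 16, 12.9, 15.5, and 14.3 CPM. Znfx1, a helicase that takes part in sensing of viral RNA, had 28.6, 27.5, and 36.9 CPM against 20.7, 19.2, 17.4, and 19.2 CPM. 2900026A02Rik and Klhl18 completed the group, with log2 fold changes of 0.71 and 0.86. Of these 5, Rnf157 and 2900026A02Rik were also higher in the single cells, with UMI ratios of 1.67 (1.12 to 2.51) and 1.14 (1.06 to 1.22), and the other 3 had ratios of 0.99 to 1.03.

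In all, 406 of the 2335 lymphocyte-enriched genes were lower, 6 at an unadjusted p below 0.05, against 18 at that p with lymphocyte-based factors, 52 with the epithelial covariate, and 63 without KO 2. The rule chose 8 lower genes without overlap, of which 4 are described here. Prap1 (chr7:140093396-140097203), a proline-rich acidic protein known from the gut epithelium that passed as lymphocyte-enriched by its level in the duodenum and jejunum, had 42.8, 18.1, and 41.3 CPM in Btnl2-KO libraries. WT libraries had 50.5, 161, 147, and 81.9 CPM, and WT 1 lay nearest to the Btnl2-KO libraries. Its log2 fold change was -1.69 (SE 0.44, edgeR FDR 0.43, DESeq2 FDR 0.0076) and -0.48 with the epithelial covariate. A430005L14Rik had 43.3, 40.9, and 22.9 CPM in Btnl2-KO against 61.0, 64.5, 69.5, and 56.5 CPM in WT libraries, and a ratio of 0.69 (0.62 to 0.76) in the single cells. Hmga1, an architectural chromatin protein of proliferating cells, had 29.2, 36.1, and 40.4 CPM against 46.7, 70.0, 51.1, and 59.1 CPM. Dynlt1f had 117, 114, and 80.3 CPM against 150, 162, 189, and 148 CPM, but shares reads with near-identical copies such as Dynlt1b and its own change is uncertain.

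Genes that define the T cell surface lay on the higher side of the comparison but none reached an unadjusted p of 0.05. Of 20 such genes 17 were higher, with a median log2 fold change of 0.20 (all tested genes, 0.06, and lymphocyte-enriched genes, 0.22). This median became 0.00 with lymphocyte-based factors and with the epithelial covariate. The background for this list and those that follow was 1929 of 2335 lymphocyte-enriched and 7195 of 12604 tested genes higher. A list near the share of its class repeats the shift of that class. Cd3d had 1315, 2331, and 709 CPM in Btnl2-KO and 1355, 1097, 1046, and 905 CPM in WT libraries, where the Btnl2-KO libraries held both the highest and the lowest value. Cd3g behaved in the same way, at 5431, 6599, and 2862 CPM against 5191, 3992, 3871, and 3554 CPM. Without KO 2 the log2 fold changes of Cd3d and Cd3g were -0.13 and -0.01.

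The TCR signalling list, kinases and adaptors that act just below the receptor, had 21 of 22 members higher and a median log2 fold change of 0.37 (0.18 with lymphocyte-based factors and 0.26 with the epithelial covariate). Its summed level was 8774, 8138, and 7830 CPM in Btnl2-KO and 8268, 5217, 5444, and 6556 CPM in WT libraries, WT 1 alone reaching the range of Btnl2-KO. Cblb, a ubiquitin ligase that restrains T cell activation, had 41.2, 49.2, and 66.8 CPM in Btnl2-KO libraries and 41.1, 32.4, 30.6, and 40.3 CPM in WT libraries (log2 fold change 0.54, SE 0.22, edgeR FDR 0.54). Cblb was also higher in the single cells, by a ratio of 1.17 (1.09 to 1.26), but of the list as a whole 7 members were higher there and 15 lower. Fcer1g, a signalling chain that γδ IELs can use in their receptor complex, had 1228, 1662, and 844 CPM against 1200, 818, 792, and 896 CPM, and overlapped. Tyrobp, the DAP12 adaptor of activating NK receptors, overlapped as well, at 494, 697, and 325 CPM against 583, 212, 291, and 499 CPM. Syk, a kinase, was the only member below 0, at 1.54, 0.369, and 2.38 CPM against 2.65, 5.45, 4.22, and 4.19 CPM (edgeR FDR 0.52), and by its class it was epithelial-enriched.

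Cytolytic genes were on the higher side without exceeding the spread between libraries. Of 20 genes 19 were higher (median log2 fold change 0.29, 0.07 with lymphocyte-based factors, and 0.25 with the epithelial covariate), and 2, Serpinb9 and Tnfsf10, had an unadjusted p below 0.05. Gzma, the granzyme of highest level in γδ IELs, had 25335, 35378, and 14866 CPM in Btnl2-KO and 22292, 16675, 20246, and 20108 CPM in WT libraries. Gzmb, the granzyme that cleaves caspases, had 12430, 5858, and 8327 CPM against 9883, 4779, 7308, and 10221 CPM, a log2 fold change of 0.14 (SE 0.38) that was -0.06 with lymphocyte-based factors. Both granzymes overlapped between genotypes. Serpinb9, which inhibits granzyme B and protects the cytotoxic cell, did not overlap, at 93.6, 87.5, and 93.2 CPM against 60.5, 65.3, 69.8, and 77.4 CPM (log2 fold change 0.42, SE 0.17, edgeR FDR 0.54). Tnfsf10, the death ligand TRAIL, had 129, 151, and 199 CPM against 109, 93.0, 98.9, and 132 CPM (log2 fold change 0.56, SE 0.22, edgeR FDR 0.52).

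Of 21 tested NK receptor genes 18 were higher (median 0.30, 0.06 with lymphocyte-based factors, -0.07 with the epithelial covariate, and -0.05 without KO 2). Crtam, a receptor of cytotoxic lymphocytes that is needed for their residence in the gut, was the only one with an unadjusted p below 0.05. It had 83.8, 85.4, and 73.1 CPM in Btnl2-KO and 68.1, 50.5, 61.5, and 64.7 CPM in WT libraries, with no overlap (log2 fold change 0.40, SE 0.18, edgeR FDR 0.57). In the single cells Crtam was higher as well (ratio 1.13, 1.03 to 1.24), and of the NK receptor genes with a UMI 15 were higher and 8 lower.

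Cytokine receptors and their signalling proteins lay on the higher side of the comparison. All 25 members were higher in Btnl2-KO libraries (median log2 fold change 0.41), and 20 of 25 with lymphocyte-based factors (median 0.22). With the epithelial covariate 23 were higher, with a median of 0.43. The summed level was 5020, 3510, and 5680 CPM in Btnl2-KO and 4282, 2756, 3020, and 4094 CPM in WT libraries, so that KO 2 lay below WT 1 and WT 4. Jak3, the kinase bound to the common γ chain, had 368, 205, and 395 CPM in Btnl2-KO against 272, 137, 140, and 225 CPM in WT libraries and was the only member with an unadjusted p below 0.05 (log2 fold change 0.74, SE 0.32, edgeR FDR 0.55).

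Il2rb, the β chain shared by the receptors of IL-2 and IL-15, had 596, 391, and 862 CPM against 445, 183, 287, and 597 CPM. Il2rg, the common γ chain, had 1167, 604, and 990 CPM against 853, 599, 663, and 825 CPM. Il2ra, the α chain of the IL-2 receptor, had the fewest counts of the 3 and no overlap, at 2.67, 4.42, and 2.43 CPM against 2.31, 1.98, 1.41, and 1.67 CPM. The genotypes overlapped in Jak3, Il2rb, and Il2rg. In the single cells the list had a ratio of 0.99 (0.976 to 0.997), with 12 of 25 members higher.

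Of 21 tested genes of homing and retention 18 were higher (median 0.35, 0.13 with lymphocyte-based factors, and 0.32 with the epithelial covariate). Itgae, the αE chain of the integrin that binds E-cadherin on epithelium, had 1629, 1035, and 2176 CPM in Btnl2-KO and 1389, 766, 914, and 1272 CPM in WT libraries. Itgb7, its partner chain, had 1745, 1299, and 1329 CPM against 1395, 956, 802, and 1043 CPM. Both overlapped, at log2 fold changes of 0.57 (SE 0.32) and 0.47 (SE 0.26). Itgal, the α chain of LFA-1, had no overlap, at 43.6, 44.8, and 64.7 CPM against 36.6, 32.8, 32.6, and 40 CPM (log2 fold change 0.52, SE 0.20, edgeR FDR 0.53).

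Transcription factors of T cell lineages gave 22 of 27 higher (median 0.35, 0.16 with lymphocyte-based factors, and 0.19 with the epithelial covariate), with 4 higher and 1 lower at an unadjusted p below 0.05. Tox, an HMG-box factor, had 87.2, 100, and 91.5 CPM in Btnl2-KO and 73.5, 57.1, 60.6, and 68.1 CPM in WT libraries, with no overlap (log2 fold change 0.52, SE 0.18, edgeR FDR 0.47). Ahr, the aryl hydrocarbon receptor on which IELs depend for their maintenance, had 23.7, 34.4, and 46.7 CPM against 25.1, 19.5, 22.4, and 22.8 CPM, where KO 1 lay within the WT range. Runx3, a factor of the CD8 lineage, and Tbx21, which encodes T-bet, had log2 fold changes of 0.57 (SE 0.23) and 0.55 (SE 0.22) with overlap between genotypes.

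Id3, an inhibitor of E proteins, was the member lower at that p, at 76.6, 91.5, and 72.5 CPM in Btnl2-KO and 84.0, 145, 130, and 107 CPM in WT libraries (log2 fold change -0.54, SE 0.22, edgeR FDR 0.54). It was lower in the single cells as well, at a ratio of 0.87 (0.81 to 0.93). WT 1 lay among the Btnl2-KO libraries for this gene.

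Immediate early genes, which report recent stimulation or handling of cells, showed no common direction, with 16 of 24 higher (median 0.25, and -0.11 with the epithelial covariate). Fos had 916, 446, and 380 CPM in Btnl2-KO and 950, 914, 519, and 398 CPM in WT libraries, and Jun 349, 194, and 183 CPM against 422, 373, 185, and 182 CPM. Rel, an NF-κB subunit, had 9.55, 12.3, and 10.1 CPM against 6.52, 7.63, 7.35, and 6.98 CPM, with no overlap. Ptp4a1, a tyrosine phosphatase and one of the 2 features that DESeq2 called higher (FDR 0.038), had 10.9, 73.8, and 113 CPM against 12.4, 20.6, 15.9, and 23.9 CPM. Its fold change rested on KO 2 and KO 3, since KO 1 lay below every WT library, and with sample weights its log2 fold change was -0.07.

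Inhibitory receptors and ligands gave 11 of 14 higher (median 0.30, 0.10 with lymphocyte-based factors, and 0.30 with the epithelial covariate), and 3 of them had no overlap and an unadjusted p below 0.05. Lag3, a checkpoint receptor, had 29.1, 27.1, and 26.1 CPM in Btnl2-KO and 25.5, 12.0, 15.5, and 19.6 CPM in WT libraries (log2 fold change 0.60, SE 0.27, edgeR FDR 0.57). Nt5e, the ectoenzyme CD73 that makes adenosine, had 145, 162, and 272 CPM against 127, 97.3, 121, and 144 CPM (log2 fold change 0.66, SE 0.25, edgeR FDR 0.52). Cd274, which encodes PD-L1, had 23, 20, and 31 CPM against 16.3, 11.9, 16.6, and 19.0 CPM (log2 fold change 0.63, SE 0.25, edgeR FDR 0.53). In all 3 the highest WT library came close to the lowest Btnl2-KO library. In the single cells Lag3 and Nt5e were higher, with ratios of 1.14 (1.11 to 1.17) and 1.16 (1.09 to 1.24), and Cd274 was lower (0.86, 0.76 to 0.98). Of this list 6 members were higher and 7 lower there. Pdcd1, which encodes PD-1, overlapped in bulk at 20.7, 17.6, and 20.9 CPM against 16.2, 9.68, 13.8, and 19.1 CPM.

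No tested member of the cytokine, survival, or heat shock lists had an unadjusted p below 0.05. Of 15 tested cytokine genes 11 were higher (median 0.13, -0.09 with lymphocyte-based factors, -0.39 with the epithelial covariate, and -0.06 without KO 2). Ifng had 34.0, 35.8, and 17.7 CPM in Btnl2-KO and 35.4, 26.5, 25.6, and 18.9 CPM in WT libraries. Survival and apoptosis genes gave 15 of 16 higher with a median of 0.17, -0.06 with lymphocyte-based factors, and 0.11 with the epithelial covariate, Bcl2 having 221, 189, and 220 CPM against 218, 160, 159, and 189 CPM. Heat shock genes had a median of 0.04 over 11 genes, -0.19 with lymphocyte-based factors, -0.13 with the epithelial covariate, and -0.17 without KO 2.

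Genes of mitosis were lower in Btnl2-KO libraries, and 1 WT library went with the Btnl2-KO group. All 14 genes of the list were below 0 (median log2 fold change -1.03, and 0.12 with the epithelial covariate), 7 of them at an unadjusted p below 0.05. Ube2c, which the anaphase-promoting complex uses to mark cyclins, had 39.9, 15.5, and 30.1 CPM in Btnl2-KO and 28.7, 120, 110, and 79.9 CPM in WT libraries (log2 fold change -1.57, SE 0.47, edgeR FDR 0.44, DESeq2 FDR 0.03). Cdk1, the mitotic kinase, had 30.7, 22.9, and 25.2 CPM against 19.7, 82.1, 88.8, and 74.8 CPM. Birc5, which encodes survivin, had 32.5, 30, and 23.8 CPM against 19.3, 81.6, 79.6, and 70.0 CPM. In each of these genes WT 1 lay within or below the range of the Btnl2-KO libraries and the other 3 WT libraries lay well above it.

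Mki67, which marks cycling cells, and Top2a differed less, at log2 fold changes of -0.52 (SE 0.31) and -0.62 (SE 0.33). Stmn1, a tubulin-binding protein of dividing cells, had 103, 103, and 75.2 CPM in Btnl2-KO against 86.4, 288, 247, and 218 CPM in WT libraries. Tk1, the thymidine kinase of S phase, had 14.3, 14.2, and 13.1 CPM against 14.1, 39.8, 41.0, and 33.6 CPM (log2 fold change -1.21, SE 0.34, edgeR FDR 0.44). Genes of DNA replication as a list had a median of 0.01 (-0.18 with lymphocyte-based factors and 0.29 with the epithelial covariate), with 2 of 13 lower at an unadjusted p below 0.05. The pan-epithelial sum was lowest in the same 4 libraries as the mitosis sum. With the epithelial covariate 8 of 14 members of the mitosis list were higher and none was at an unadjusted p below 0.05. Without WT 1, all 14 members were lower at that p, with a median of -1.29.

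The mitosis list was lower in the single cells of Btnl2-KO mice too. Its 14 genes summed to 81.7 CPM of UMIs in the Btnl2-KO and 133 CPM in the WT library, a ratio of 0.61 (0.58 to 0.65), and all 14 were lower. Among cells with a CD3 UMI and no UMI of the pan-epithelial list the ratio was 0.44 (0.41 to 0.48). Cells with at least 3 UMIs of 10 mitotic genes were 63 of 4667 (1.35%, 1.04 to 1.72) in the Btnl2-KO and 64 of 3724 (1.72%, 1.33 to 2.19) in the WT library. After each cell was thinned to 2000 UMIs they were 18 of 4618 (0.39%, 0.23 to 0.62) and 27 of 3694 (0.73%, 0.48 to 1.06). With 1 library per genotype there is no replicate check, and these intervals, which overlap, cover counting error only. In bulk the list had medians of 0.41 in the duodenum and -0.18 in the jejunum. The study reports the opposite direction for BrdU uptake, which was higher in ileal γδ IELs of Btnl2-KO than of WT mice in a separate experiment. BrdU uptake over days and mitotic transcripts at the time of sorting are different measures, and their relation was not tested.

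Interferon-induced genes as a list had a median of 0.13 (-0.06 with lymphocyte-based factors and -0.04 with the epithelial covariate), with 25 of 35 higher, but 4 members were lower at an unadjusted p below 0.05 and none higher. Ifitm2 and Ifitm3, membrane proteins that block the entry of viruses, had no overlap between genotypes. Ifitm2 had 26.4, 22.9, and 21.9 CPM in Btnl2-KO and 27.8, 96.7, 71.9, and 63.4 CPM in WT libraries (log2 fold change -1.45, SE 0.36, edgeR FDR 0.43, DESeq2 FDR 0.011). Ifitm3 had 21.8, 22.8, and 15.0 CPM against 32.6, 69.1, 55.6, and 31.8 CPM (DESeq2 FDR 0.021). Oas1g, a sensor of double-stranded RNA, had 0.474, 0.811, and 1.39 CPM against 3.98, 3.68, 2.05, and 3.55 CPM, and here WT 1 had the highest value of all libraries. Ifi44 was low throughout, at or below 0.199 CPM in Btnl2-KO and between 0.384 and 2.02 CPM in WT libraries. Ifitm2 and Ifitm3 were lower in the single cells too, with ratios of 0.43 (0.35 to 0.52) and 0.21 (0.14 to 0.29).

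Antibacterial and most epithelial lists were on the lower side of the comparison, and fewer of their members reached an unadjusted p of 0.05 with the epithelial covariate. Of 24 tested α-defensin genes all 24 were below 0 (median log2 fold change -1.70), 23 at an unadjusted p below 0.05 and 21 without overlap, and DESeq2 called 22. With the epithelial covariate all 24 were still below 0 (median -1.22), 6 of them at that p. These genes are near-identical copies, and how reads were split among them is uncertain. Their sum was 15565, 19663, and 19388 CPM in Btnl2-KO and 30280, 108836, 34888, and 62539 CPM in WT libraries. Defa24 had 3592, 3964, and 4217 CPM against 6196, 25019, 7641, and 12797 CPM. Fabp6 (chr11:43596040-43601562), the bile acid binding protein of ileal enterocytes, had 96.6, 134, and 90.1 CPM against 386, 580, 547, and 306 CPM with no overlap (log2 fold change -2.09, SE 0.29, edgeR FDR 0.26, DESeq2 FDR 9.1e-09). Among shared genes the 5 chosen by the rule as lower were Krt18, a keratin of simple epithelia, Nupr1, Fgfbp1, Ces2a, and Tstd1, at log2 fold changes of -1.82 to -2.21. Anxa13, an annexin of gut epithelium, had 8.24, 6.71, and 12.2 CPM against 15.4, 44.0, 36.0, and 21.3 CPM. The 5 epithelial-enriched genes chosen as higher, Ap2b1, Ctdsp2, Gcn1, Mgat5, and Nacc1, had log2 fold changes of only 0.23 to 0.58. The 20 genes that the study names for ileal γδ IELs were all lower (median -2.05), 20 at an unadjusted p below 0.05, and with the epithelial covariate 5 were at that p (median -0.64). That list was chosen on these samples and is not independent evidence. The Paneth cell genes other than α-defensins (5 of 5 lower, median -1.58), the goblet cell genes (7 of 7, -1.55), and the pan-epithelial genes (11 of 12, -1.30) went with them, and enterocyte genes had a median of -0.29 (0.02 without KO 2). With the epithelial covariate, which is built from the pan-epithelial genes themselves, the medians were -0.71, -0.51, -0.19, and 0.78 in this order. The members lower at an unadjusted p below 0.05 then numbered 0 of 5 Paneth cell genes (5 without the covariate), 0 of 7 goblet cell genes (6), and 1 of 12 pan-epithelial genes (8), and 3 of 11 enterocyte genes were higher at that p.

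The effect in the ileum differed from that in the other segments by no gene at an FDR below 0.05. The interaction of genotype with segment, the ileal effect minus the mean of the duodenal and jejunal effects over all 22 γδ IEL libraries, was tested in 13360 genes with edgeR, and 0 passed (0% called, lowest FDR 0.40). The study describes the 3 segments as taken from 1 set of littermates, so that libraries of different segments can share mice. The labels do not tie them, and the fit treated all libraries as independent. At an unadjusted p below 0.05, 635 genes (4.75%) were lower and 948 (7.1%) higher in the ileum than in the other segments. Among the members of the cytokine receptor list 9 of 25 were higher at that p, of the transcription factor list 8 of 27, of the TCR signalling list 5 of 22, and none of these lists had more than 1 member lower. The 10 lymphocyte-enriched genes named above were all higher at that p (median difference 0.78), but they were chosen on the ileal libraries that enter this difference.

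The lymphocyte-enriched class as a whole had median log2 fold changes of -0.10 in the duodenum and 0.09 in the jejunum. In the jejunum 330 of its genes were higher and 16 lower at an unadjusted p below 0.05, by edgeR over all 22 libraries. In the duodenum 1 was higher and 14 lower. Over genes of all classes, 784 were higher at that p in the jejunum and 799 in the ileum by the same fit, so that higher genes were not particular to the ileum. Jak3 had log2 fold changes of 0.74 in the ileum, 0.09 in the duodenum, and -0.27 in the jejunum. Tox had 0.52, 0.00, and -0.09, and Ahr 0.64, -0.14, and -0.41. The cytokine receptor list as a whole had medians of 0.41, -0.05, and -0.20 in the same order, and the TCR signalling list 0.37, -0.05, and -0.14. NK receptors did not follow this order, with 0.30, 0.08, and 0.57. Fabp6 went the other way in the proximal segments, at -2.09 in the ileum, 1.42 in the duodenum, and 1.84 in the jejunum, and the α-defensins had medians of -1.70, 0.56, and 0.96. No α-defensin gene reached an unadjusted p of 0.05 in the duodenum or jejunum by edgeR. Over all genes that fit called 0 higher in the duodenum and 1 in the jejunum. Each segment was compared with WT libraries of that segment, which can come from the same mice as those of the other segments.

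**Figure D4:**
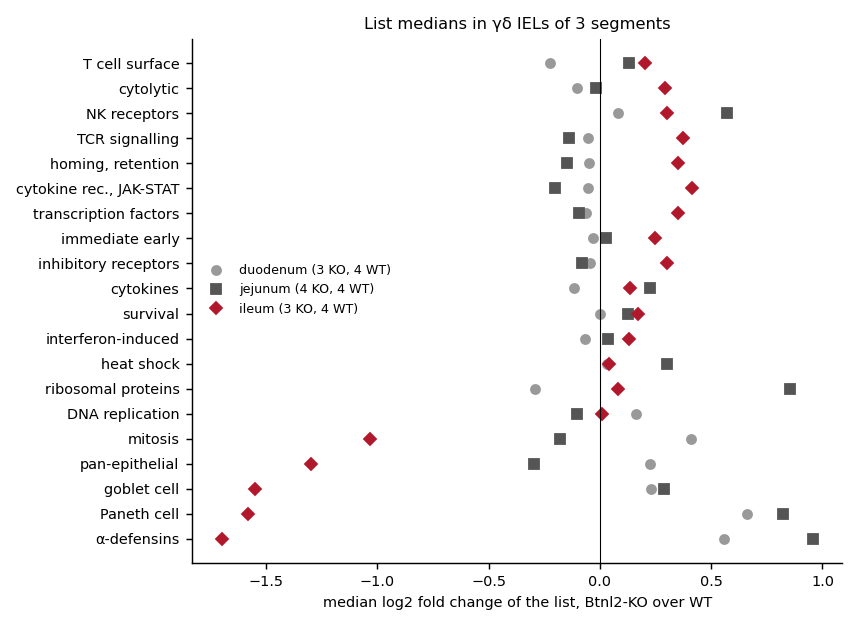
Median log2 fold change, Btnl2-KO over WT (horizontal axis), of 20 gene lists (rows) in γδ IELs of the duodenum (grey circles), jejunum (dark squares), and ileum (red diamonds). In the ileum the lists from T cell surface to interferon-induced lie between 0.13 and 0.41 and the mitosis, pan-epithelial, goblet cell, Paneth cell, and α-defensin lists at or below -1.03.

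In the single cells of the ileum the lymphocyte lists other than mitosis and DNA replication differed little between genotypes. With 1 library each there is no test. The 2187 lymphocyte-enriched genes with a UMI had a summed ratio of 0.993 (0.992 to 0.994), and 862 of them were higher in the Btnl2-KO library. Over genes of all classes with a UMI the share was similar, with 5935 of 14928 higher. The labels give these mice as 8 to 10 weeks old, and the study describes the cells as part of the same sorted samples, pooled per genotype, so that they are not an independent cohort. The Btnl2-KO library had 4667 cells with a median of 5462 UMIs and the WT library 3724 cells with a median of 5040 UMIs. A CD3 UMI was found in 99.9 and 99.5% of the cells, and 31 barcodes were shared by both libraries. UMIs of the pan-epithelial list were found in 52.6 and 56.0% of the cells, and in the 6 and 20 cells without a CD3 UMI in 83.3 and 85.0%. The T cell surface and cytolytic lists each had a ratio of 0.996, the TCR signalling list 1.002, homing genes 0.98 (0.97 to 0.99), and inhibitory receptors 1.07 (1.05 to 1.09). Gzmb was lower in the Btnl2-KO library (0.89, 0.88 to 0.89) and Fcer1g higher (1.09, 1.08 to 1.11).

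Epithelial lists split in the single cells. The pan-epithelial list was lower in the Btnl2-KO library, as in bulk, at 199 against 545 CPM (ratio 0.36, 0.35 to 0.38), and Fabp6 had 258 against 4664 UMIs. The α-defensins went against the bulk libraries, at 5390 against 753 CPM (ratio 7.16, 7.05 to 7.28), and so did Lyz1, the lysozyme of Paneth cells, with 16837 against 268 UMIs. Of the 31 α-defensin genes in the bulk sum, only 14 were listed for the single cells, so that the sums cover different members. The goblet cell genes went against bulk too, with a ratio of 1.18 (1.14 to 1.22) and 6 of 7 higher, against a ratio of 0.33 of the summed bulk levels. In bulk, Lyz1 had 2269, 1307, and 5465 CPM in Btnl2-KO and 5328, 16728, 5979, and 16194 CPM in WT libraries. Nupr1, a stress-induced chromatin protein, was also opposite, with bulk levels of 11.0, 12.2, and 17.5 CPM against 38.6, 98.5, 34.3, and 76.5 CPM and 223 against 17 UMIs in the single cells. Lymphocyte lists other than mitosis (ratio 0.61) and DNA replication (0.89, 0.86 to 0.91) thus had ratios of 0.95 (immediate early genes) to 1.07 (inhibitory receptors) between the single-cell libraries. The α-defensin, Paneth cell, and goblet cell lists differed in the opposite direction to bulk.

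**Figure D5:**
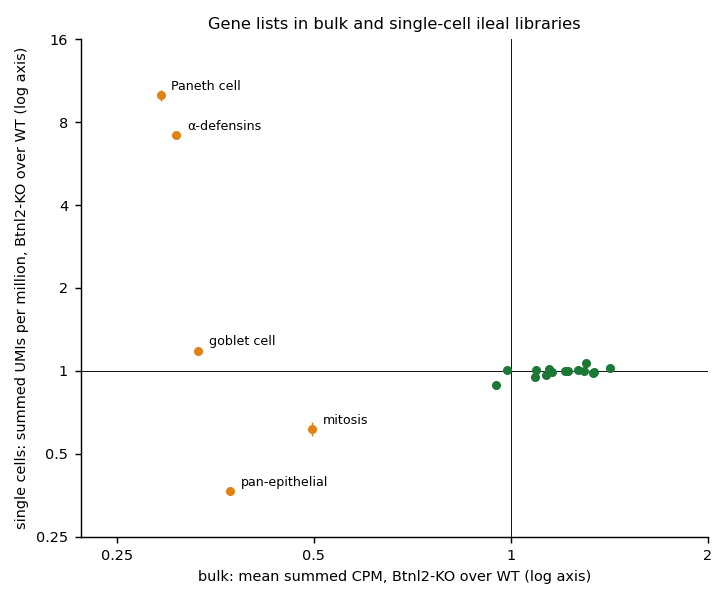
Ratio of Btnl2-KO to WT for gene lists in the bulk libraries (horizontal axis, ratio of mean summed CPM, log axis) and in the ileal single-cell libraries (vertical axis, ratio of summed UMI CPM, log axis). Bars are exact 95% intervals for counting error. Green points are lymphocyte and general lists and orange points the mitosis and epithelial lists, of which the α-defensins have a ratio of 0.31 in bulk and 7.16 in single cells. The single-cell sum covers 14 of the 31 α-defensin genes of the bulk sum.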

How the data were processed

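For each bulk library, γδ IELs were sorted from a pair of pooled mice. Reads were mapped by the authors in ArrayStudio, on a mouse genome they had customized, and the deposited values are RSEM expected counts per gene over sense-strand exons, of which 5.00% of the γδ IEL values were not whole and were rounded here (14.9% in the IEC table). The build in the submitters' notes is GRCm38. The study and the labels name different library kits. The single-cell files deposited by the authors hold UMI counts per gene and cell from Cell Ranger on mm10. Symbols and coordinates came from RefSeq GRCm38.p6, which named 24375 of 24475 identifiers, and 1 column of the γδ IEL table matched no sample and was not used.

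Genes with at least 10 counts in at least 3 of the 7 ileal libraries were tested with edgeR's quasi-likelihood test (edgeR 4.0.16, R 4.3.3), TMM factors, and Benjamini-Hochberg adjustment (FDR below 0.05 and a fold change above 1.5), with no covariate. CPM are TMM-scaled, and SE is the log2 fold change divided by the square root of its F statistic. The interaction with segment used all 22 γδ IEL libraries. Alternatives were DESeq2 1.42.0, limma 3.58.1 with voom with and without sample weights, other size factors and filters, a pan-epithelial covariate, and each library left out in turn. The script was tested on simulated data. The p-values measure only the spread between pools.

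A gene was lymphocyte-enriched if its mean in the WT duodenal and jejunal γδ IEL libraries was at least 5 CPM and, with 0.5 CPM added to both, at least 4 times its mean in the WT IEC libraries, epithelial-enriched in the reverse case, shared if either mean reached 5 CPM, and low otherwise. Genes were named as follows: Btnl2, lymphocyte-enriched genes (up to 10 in each direction) and shared and epithelial-enriched genes (up to 5 each) with the smallest p among those at 10 CPM or more in a group and without overlap between genotypes, and members of the gene lists with an unadjusted p below 0.05 or among the first 3 of a list. ID807225 was added after its values were seen. The lists and the libraries compared were chosen with earlier results of these data known.

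Cells were kept from 500 detected genes upwards if no more than 10% of their UMIs were mitochondrial, no doublet caller was run, and UMIs were summed per library and divided by its total. Intervals are exact 95% intervals and cover counting error only.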

Additional observations from a re-analysis of the deposited data

Results flagged for a closer look

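Of 110 values examined over the 4 WT libraries, 1 had a library far from the others, and chance alone gives about 1 in 20. Top2a, a topoisomerase of dividing cells, had 31.6 CPM in WT 1 against 88.1, 91.3, and 90.3 CPM in the other WT libraries. The Btnl2-KO libraries had 45.2, 54.0, and 47.6 CPM. The Btnl2-KO group, with 3 libraries, was not examined in this way.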

How the results depend on the processing

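No paired analysis was possible because the replicate numbers were given in the order of the records and pair no libraries. With 3 and 4 pools the edgeR test called 0 genes, and the calls made by other settings were 227 (DESeq2), 1207 (limma-voom with sample weights), 2 (all 22 libraries in one fit), 0 to 60 with a library left out, and 535 with KO 2 and WT 1 left out, a setting chosen after seeing the data. At an unadjusted p below 0.05 the 797 lower genes became 2106 with sample weights, 1235 with lymphocyte-based TMM factors, 229 with the epithelial covariate, 443 to 1266 with a library left out, and 1764 without both libraries. The 311 higher genes became 1934, 19, 580, 59 to 832, and 1394 in the same order, and 799 with all 22 libraries. The median log2 fold change of lymphocyte-enriched genes (0.22) was 0.0042 with lymphocyte-based factors, which centre this class by construction, and -0.0401 with the covariate. The median log2 fold change of epithelial-enriched genes (-0.73) was 0.168 with the covariate and -1.249 to -0.534 with libraries left out. That of shared genes (0.06) was -0.0075 with sample weights, 0.026 by voom without them, -0.16 with lymphocyte-based factors, and 0.015 to 0.0708 with libraries left out. The interaction called 0 genes, and 1477 with sample weights.

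Among 75 named genes, 21 values over all settings changed sign. With the epithelial covariate these were Gzma (-0.34), Fcer1g (-0.21), Tyrobp (-0.52), Cd3d (-0.58), Cd3g (-0.37), Ifng (-0.39), and Plk1 (0.14). With lymphocyte-based factors they were Gzmb (-0.056) and Ifng (-0.0912), and with sample weights Ptp4a1 (-0.0688), Fos (0.37), and Jun (0.39). With libraries left out, Gzmb ranged from -0.18 (without KO 1) to 0.47, with -0.05 without WT 2, Cd3d from -0.13 (without KO 2) to 0.73, Cd3g from -0.0136 (without KO 2) to 0.53, and Ifng from -0.0528 (without KO 2) to 0.39, with -0.03 without WT 4. The log2 fold change of Fos ranged from -0.75 to 0.0777 and that of Jun from -0.63 to 0.10, the highest values being without both KO 2 and WT 1, where Cd3d was -0.01. The cause of these changes was not tested. Size factors by relative log expression, both filters on low counts, and voom without weights changed no sign or call of the 75 genes.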
